A study of Mus musculus with 12 samples.

Results

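Replication-dependent histone genes, the genes for the H1, H2A, H2B, H3 and H4 proteins that package newly made DNA, were followed across 12 mouse livers. They were taken by symbol, H1f1 to H1f5 and every H2ac, H2bc, H3c or H4c gene with a number, and kept where a probe was detected above background on at least 1 of the 12 arrays. Of 55 such genes on the array 42 were kept, among 9307 named genes measured in all. They comprised 1 H1 gene, 13 H2A, 9 H2B, 7 H3 and 12 H4 genes, 34 of them on chromosome 13 and 8 on chromosome 3. Of the 42, 33 were detected on all 12 arrays and 3 (H2ac8, H2ac11 and H4c14) on 3 arrays or fewer.

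H3 and H4 form the core tetramer of the nucleosome, H2A and H2B add as dimers, and H1 binds the linker DNA between nucleosomes. Their genes lie in clusters, lack introns, are transcribed mainly in S phase, when the cell copies its DNA, and give mRNAs that mostly end in a stem-loop instead of a poly(A) tail. Adult liver holds few dividing cells. The study's methods primed cDNA synthesis with a T7 oligo(dT) primer, which pairs with poly(A) tails, and which share of a histone mRNA carries such a tail was not measured.

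The study compared Tmprss6 KO mice, which lack the hepatic protease that restrains the iron hormone hepcidin, with wild-type littermates made iron deficient by diet (IDA). All were of a mixed 129/Ola × C57BL/6 strain and 7 weeks old, after 3 weeks on an iron replete diet (KO) or an iron deficient one (IDA). Groups of 3 were injected with saline only, here called untreated or UT, or with the bacterial endotoxin LPS at 0.1 mg/kg, and livers were taken 6 hours later and profiled one by one. Diet changed along with genotype, so the 2 cannot be told apart in any comparison of KO with IDA livers. Whole liver was sampled, in which fewer cells of a type and less RNA per cell cannot be told apart.

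Between 12641 and 14423 probes were detected per liver, and all 8 hepatocyte markers were measured, with a summed intensity of 180770 to 226428. Tmprss6 stood at log2 intensities of 9.43 to 11.21 in IDA and of 7.72 to 8.39 in KO livers. Xist, transcribed from the inactive X chromosome, was bright in replicates 1 and 2 of the untreated KO mice and replicate 1 of the untreated IDA mice, with 11.84 to 12.05, while the remaining 9 livers had 4.80 to 6.73. The Y-linked gene Eif2s3y stood at 4.83 in IDA UT 1, 4.94 in KO UT 1 and 4.80 in KO UT 2, and at 9.27 to 10.16 in the remaining 9. By both genes these 3 livers read as female, whereas the study's methods state male mice. All 3 were untreated, so sex was unbalanced in every comparison that uses untreated livers. Counts of histone genes that rest on these livers are given with and without them. Leaving all 3 out keeps 1 untreated KO liver, whose spread is then assumed to be that of the other groups. Values below are log2 intensities after background correction and quantile normalization, listed in the order of replicates 1, 2 and 3. A gene passed when its adjusted p in limma, over 11571 genes and unnamed probes, was under 0.05, and a percentage given beside a count of members is the share of all 11571 that passed the same way. Each comparison of a pair of groups shares livers with others, for example the untreated IDA livers with both the untreated KO against IDA comparison and the LPS comparison in IDA livers. Where a gene was detected on no array of a group, its ratio over that group is given as a bound, with the group set at each array's lowest detected intensity, and the adjusted p beside a bound is that of the fit on the measured values. The p with undetected livers set at that intensity is then given as the p at the floor.

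Promoter windows of 37 of the 42 members were found in RefSeq (GRCm38.p6), and the 100 bases before the annotated start were searched on both strands for 5 short motifs known from histone promoters. GGTCC, the core of a proximal element described in H4 promoters, was in 10 of 11 H4 windows, in 3 of the other 26, and in 18.1% of all 32851 windows of that length. CCAAT, the box bound by NF-Y, was in 13 of 13 H2A windows, 7 of 7 H2B windows and 2 of 11 H4 windows, against 18.9% of all windows. TATAAA was in 7 of the 37 (5.56% of all windows), ATTTGCAT, the octamer, in 2 H2B windows (0.645%), and TGACGTCA in 3 (1.15%). Matches of different motifs overlapped in 0 of the 37. The windows shown are those of 6 H4 genes and 1 H3 gene (H3c6) that were higher in untreated KO livers, of H3c13, which LPS raised in IDA livers, and of an H2A and an H2B gene that lie head to head, with all matches to the 5 motifs in capitals.
H4c6: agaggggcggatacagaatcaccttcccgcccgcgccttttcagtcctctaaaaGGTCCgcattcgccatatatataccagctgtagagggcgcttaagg
H4c3: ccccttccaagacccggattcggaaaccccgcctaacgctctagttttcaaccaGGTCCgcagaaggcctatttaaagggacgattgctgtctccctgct
H4c18: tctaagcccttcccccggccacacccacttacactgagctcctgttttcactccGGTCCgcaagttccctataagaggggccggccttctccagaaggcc
H4c17: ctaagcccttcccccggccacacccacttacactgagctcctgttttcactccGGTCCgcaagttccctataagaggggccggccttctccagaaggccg
H4c2: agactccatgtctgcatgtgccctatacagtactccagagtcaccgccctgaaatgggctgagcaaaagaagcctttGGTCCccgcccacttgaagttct
H4c1: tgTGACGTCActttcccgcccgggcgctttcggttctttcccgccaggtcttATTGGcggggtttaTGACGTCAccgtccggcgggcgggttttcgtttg
H3c6: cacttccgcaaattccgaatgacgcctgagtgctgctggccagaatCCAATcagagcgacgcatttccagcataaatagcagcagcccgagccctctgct
H3c13: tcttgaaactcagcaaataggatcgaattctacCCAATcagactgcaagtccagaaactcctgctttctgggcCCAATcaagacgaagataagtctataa
H2ac7: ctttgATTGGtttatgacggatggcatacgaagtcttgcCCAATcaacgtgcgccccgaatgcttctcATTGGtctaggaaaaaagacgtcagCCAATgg
H2bc7: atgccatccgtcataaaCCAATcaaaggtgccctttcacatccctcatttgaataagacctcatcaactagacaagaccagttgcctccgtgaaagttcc
H4c6 (chr13:23551669-23551768, minus strand) held GGTCC near the middle of its window, as did H4c3 (chr13:23698459-23698558, minus strand), H4c18 (chr13:21832198-21832297, minus strand) and H4c17 (chr13:21811646-21811745, plus strand). The windows of H4c17 and H4c18 shared an unbroken run of 99 bases. H4c2 (chr13:23756837-23756936, plus strand) held the same letters closer to the start. H4c1 (chr13:23761250-23761349, minus strand) was the H4 gene of the 11 without GGTCC and held TGACGTCA on both sides of a CCAAT match. H3c6 (chr13:23562386-23562485, minus strand) held 1 CCAAT match and H3c13 (chr3:96268554-96268653, plus strand) 2. The windows of H2ac7 (chr13:23574281-23574380, plus strand) and H2bc7 (chr13:23574208-23574307, minus strand) overlap, because these genes start 174 bases apart and point away from each other. Windows of H2bc4, H2bc21, H3c1, H3c7 and H4c14 were not analysed here.

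In untreated livers, most H4 genes stood higher in the KO group than in the IDA group. Of the 42 members 12 rose (1.59% of all genes) and 0 fell (0.907%), and those that rose were 9 of the 12 H4 genes and 3 of the 7 H3 genes. All 42 log2 ratios were above 0, with a median of 0.43 over the members and -0.01 over all genes tested. At the floor 9 rose and the medians were 0.38 and -0.06. In 15 of the 42 members every untreated KO liver exceeded every untreated IDA liver, beside 11% of all genes, and in 0 the reverse held (11.3%). The H4 median was 1.76 and the H3 median 0.95, beside 0.33 for H2A and 0.23 for H2B genes, and at the floor they were 1.54, 0.60, 0.14 and 0.23. The plot of every liver by histone gene shows the rise as a block over H3 and H4.

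**Figure D1:**
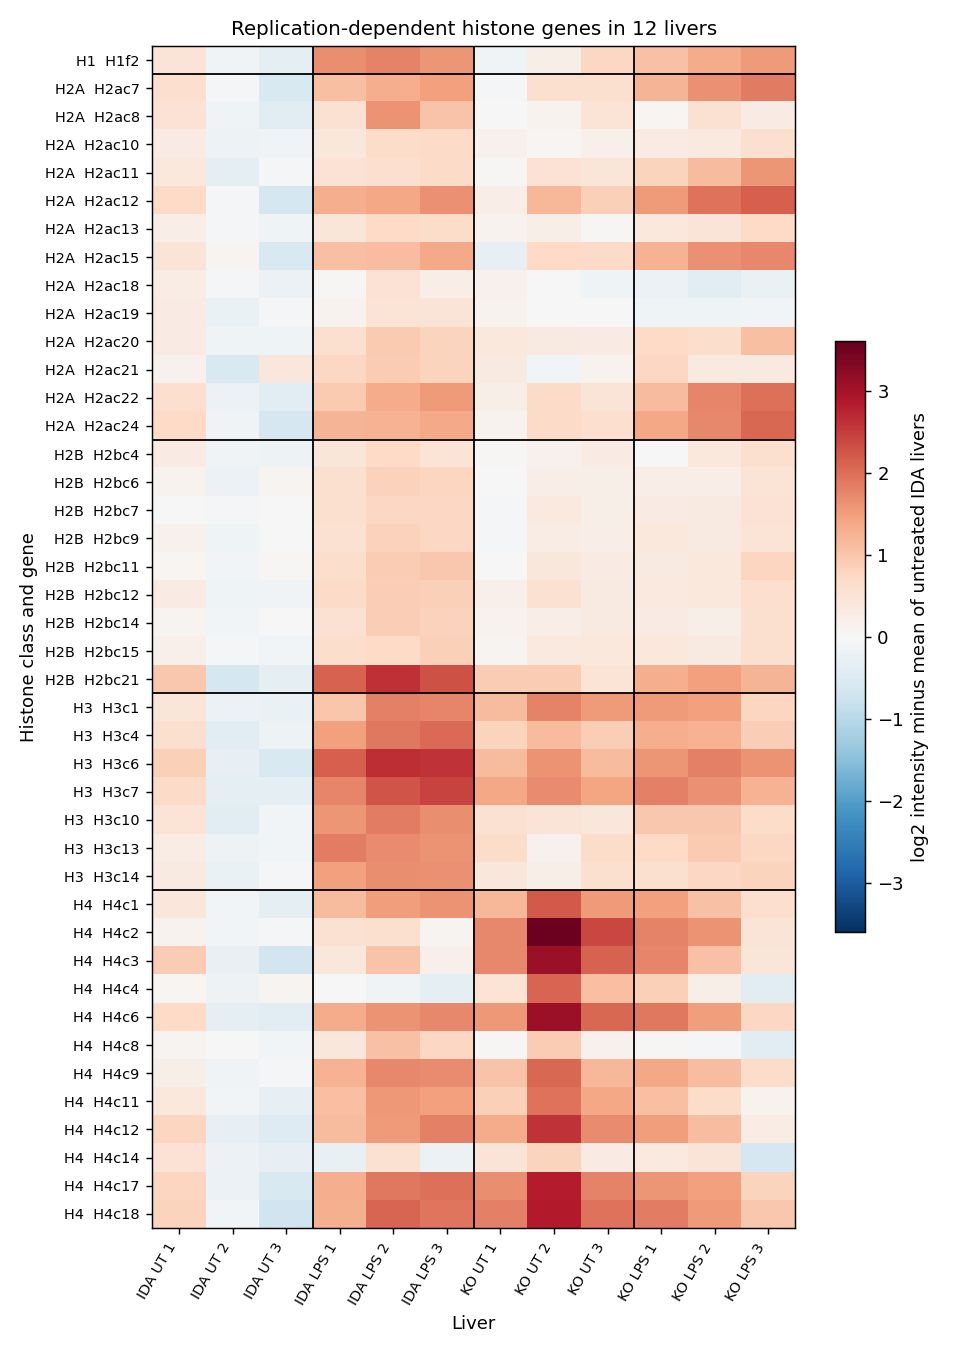
Difference of each of the 42 histone genes (rows, by class) from its mean in the untreated IDA livers, on the log2 scale, in every liver (columns). Untreated KO livers stand out in the H4 rows, with KO UT 2 highest of its group in 12 of 12 H4 genes, and LPS-treated IDA livers stand out in the H3 rows.

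H4c6, known at the time of the study as Hist1h4f, stood at 8.60, 7.57 and 7.51 in the untreated IDA livers, 9.23, 9.52 and 9.61 after LPS, 9.45, 10.98 and 9.96 in the untreated KO livers and 9.78, 9.39 and 8.65 after LPS. Every untreated KO liver thus exceeded every untreated IDA liver, with IDA UT 1 the highest of its group and KO UT 2 the highest of all 12. The log2 ratio of untreated KO over IDA livers was 2.24 ± 0.40 (SE; adjusted p = 0.019), or 4.72-fold. H4c3 (Hist1h4c) stood at 7.63, 6.45 and 6.05 in the untreated IDA livers, 7.12, 7.72 and 6.88 after LPS, 8.44, 9.83 and 8.83 in the untreated KO livers and 8.48, 7.77 and 7.14 after LPS, with a ratio of 2.32 ± 0.47 (SE; adjusted p = 0.0282). H4c1 (Hist1h4a) stood at 9.90, 9.41 and 9.18 in the untreated IDA livers, 10.63, 11.01 and 11.10 after LPS, 10.68, 11.71 and 11.04 in the untreated KO livers and 10.96, 10.54 and 10.11 after LPS, and its ratio was 1.65 ± 0.29 (SE; adjusted p = 0.016). Neither gene's untreated KO values overlapped those of the untreated IDA livers. All 3 genes encode the same H4 protein, and the study had itself named them on these livers.

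H4c2 was detected on 0 of the 3 untreated IDA arrays and on 3 of 3 untreated KO arrays. It stood at 5.18, 4.98 and 5.04 in the untreated IDA livers, 5.61, 5.64 and 5.17 after LPS, 6.78, 8.60 and 7.48 in the untreated KO livers and 6.85, 6.69 and 5.53 after LPS. Untreated KO livers were at least 2.12-fold higher than untreated IDA livers (adjusted p = 0.012), and at the floor H4c2 did not pass (adjusted p = 0.116). H4c17 and H4c18 gave similar ratios. Probe sequences were not used here, so a probe may read both genes, and a link to their promoter windows was not tested. H4c17 stood at 7.94, 6.96 and 6.63 in untreated IDA and 8.85, 10.002 and 8.96 in untreated KO livers, with a ratio of 2.09 ± 0.38 (SE; adjusted p = 0.0193). H4c18 stood at 8.08, 7.16 and 6.56 and 9.09, 10.12 and 9.22 in the same groups, with a ratio of 2.21 ± 0.40 (SE; adjusted p = 0.0179). H4c9 stood at 8.32, 8.0 and 8.05 and 9.14, 10.18 and 9.33, a ratio of 1.43 ± 0.26 (SE; adjusted p = 0.0209). The groups did not overlap for any of the 4 genes, which were shown because of their low p in this same comparison. H4c11 and H4c12 also rose, by 1.41 and 1.88. The 3 H4 genes that did not pass were H4c4 (ratio 1.22), H4c8 (0.37) and H4c14 (0.52).

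**Figure D2:**
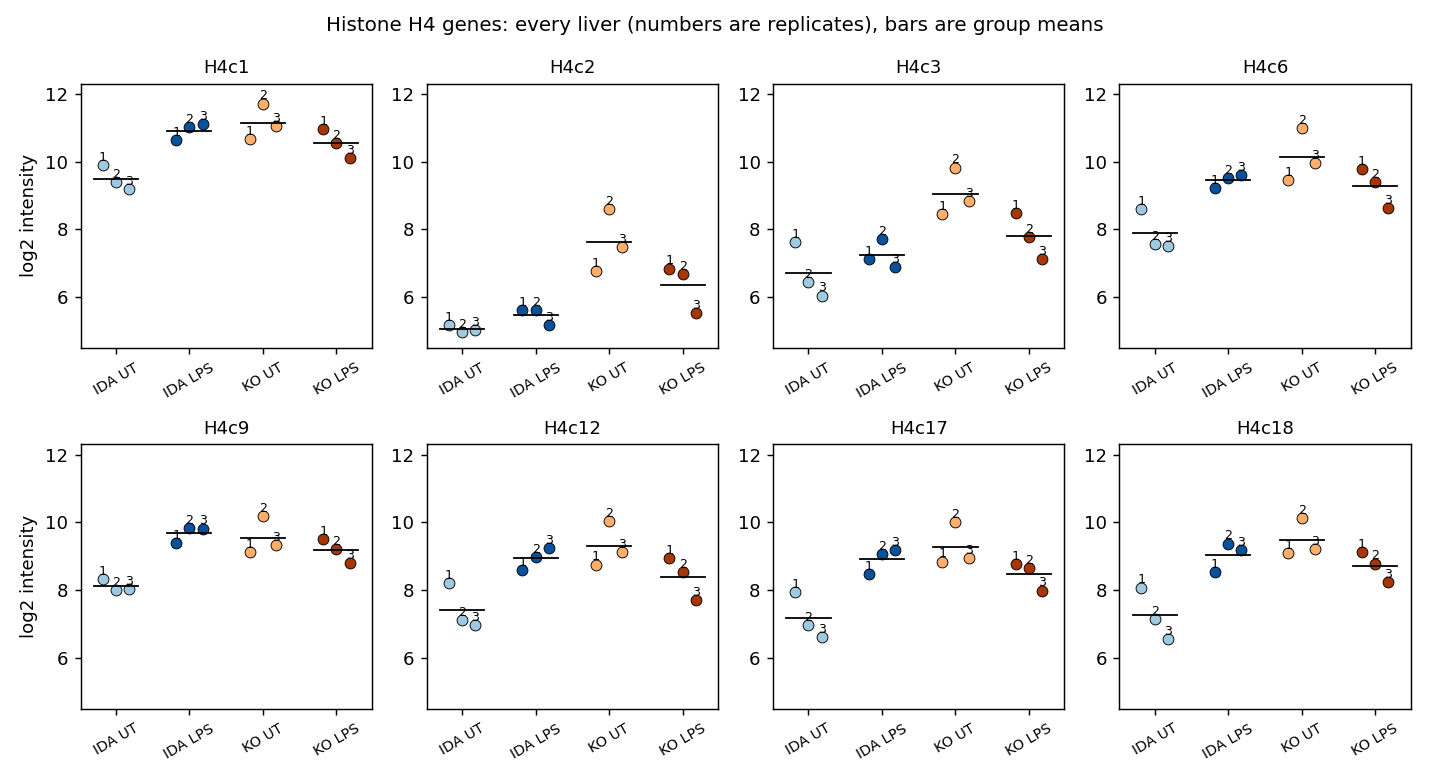
Log2 intensity of 8 H4 genes (panels) in the 4 groups, each point being 1 liver labelled with its replicate number and each bar a group mean. In all 8 panels the 3 untreated KO livers lie above the 3 untreated IDA livers, and KO UT 2 is the highest of its group.

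Among H3 genes, H3c7 was detected on 0 of 3 untreated IDA arrays and on all others. It stood at 6.47, 5.43 and 5.46 in the untreated IDA livers, 7.55, 8.05 and 8.22 after LPS, 7.19, 7.49 and 7.19 in the untreated KO livers and 7.60, 7.43 and 7.03 after LPS, and untreated KO livers were at least 1.69-fold above untreated IDA livers (adjusted p = 0.019, and 0.0553 at the floor). H3c1, also undetected in untreated IDA livers, stood at 6.08, 5.44 and 5.41 there and 6.79, 7.43 and 7.18 in untreated KO livers, at least 1.51-fold higher (adjusted p = 0.0229, and 0.253 at the floor). H3c6 stood at 8.15, 6.98 and 6.74 and 8.42, 8.90 and 8.43, a ratio of 1.29 ± 0.30 (SE; adjusted p = 0.0489) that lay just inside the threshold. At the floor H3c6 was thus the 1 H3 gene that passed. For all 3 genes the lowest KO liver lay above the highest IDA liver. The other 4 H3 genes (H3c4, H3c10, H3c13 and H3c14) had ratios of 0.40 to 0.95 and did not pass.

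No H1, H2A or H2B gene passed in untreated livers by limma. At an unadjusted p under 0.05 there were 1 of 13 H2A and 2 of 9 H2B genes, all higher in KO livers. Of all 11571 genes 1014 were higher at that p. The 13 H2A ratios ran from 0.01 to 0.76, the 9 H2B ratios from 0.15 to 0.77, and H1f2, the linker histone gene, had 0.28 ± 0.24. The H2A gene H2ac24 stood at 10.95, 10.14 and 9.66 in untreated IDA and 10.37, 10.93 and 10.85 in untreated KO livers, and the 2 groups overlapped. H2bc6 stood at 13.47, 13.13 and 13.44 and 13.35, 13.57 and 13.55, and these overlapped too.

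The direction of these 12 ratios did not turn under any of the 25 alternatives run for each, and H4c6 stayed between 1.77 and 2.59, H4c18 between 1.56 and 2.61 and H4c1 between 1.36 and 1.88, but the number of calls depended on single livers. With the 6 untreated livers fitted alone 0 members passed (15 at an unadjusted p under 0.05). Leaving out IDA UT 2, IDA UT 3 or KO UT 2 left 1, H4c2, in each case, while leaving out KO UT 3 left 7. Shares of all genes that passed under the alternatives are not given here, so a changed count is not a result about histone genes alone. Without the 3 Xist-positive livers, with the spread taken from the other groups, 4 of the 12 passed (H3c6, H3c7, H4c6 and H4c17) and the ratio of H4c6 was 2.41 (adjusted p = 0.0402), and with a term for them in the fit 9 passed. Other signals moved along with these genes. Of 24 measured immediate-early genes, which respond within minutes to stress and tissue handling, 12 rose and 0 fell in the same comparison, and their summed intensity was 67583 to 127972 in KO livers against 33901 to 60006 in IDA livers. Without the 3 Xist-positive livers 6 of 23 rose. The 4 measured of 8 erythroid precursor markers summed to 7098 to 12016 and 15607 to 34832, although none of the 4 passed, and Epb42 and Hemgn were not detected. Their part in the result was not tested.

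LPS raised histone genes of every class in IDA livers. Of the 42 members 36 rose (21.9% of all genes) and 0 fell (26.0%), with a median log2 ratio of 1.12 beside -0.06 over all genes. At the floor 33 rose and these medians were 0.82 and 0.02. Of the 36, H2ac11 was detected on no IDA array and H2ac8 on 1, and neither passed at the floor (adjusted p = 0.759 and 0.292). All 7 H3 genes rose, the 5 detected in both groups by 1.60 to 2.48, and all 9 H2B genes, by 0.55 to 2.36. Among H2A genes 11 of 13 rose and among H4 genes 8 of 12. The 36 members whose 3 LPS values all lay above their 3 untreated values compare with 25.6% of all genes.
H3c14 stood at 11.17, 10.60 and 10.77 in the untreated IDA livers, 12.33, 12.53 and 12.50 after LPS, 11.25, 11.07 and 11.41 in the untreated KO livers and 11.42, 11.59 and 11.65 after LPS, and its ratio in IDA livers was 1.60 ± 0.15 (SE; adjusted p = 6.71e-06). H3c13 stood at 11.17, 10.71 and 10.82 in the untreated IDA livers, 12.74, 12.61 and 12.51 after LPS, 11.55, 11.07 and 11.57 in the untreated KO livers and 11.63, 11.85 and 11.64 after LPS, with a ratio of 1.72 ± 0.16 (SE; adjusted p = 6.75e-06), or 3.29-fold. Both are H3 genes of the chromosome 3 cluster, and in both the 3 LPS-treated IDA livers were above all 9 others. H3c10 stood at 10.33, 9.46 and 9.74 in the untreated IDA livers, 11.42, 11.70 and 11.53 after LPS, 10.38, 10.30 and 10.25 in the untreated KO livers and 10.82, 10.81 and 10.50 after LPS, with a ratio of 1.71 ± 0.19 (SE; adjusted p = 2.42e-05). H3c6 rose from 8.15, 6.98 and 6.74 to 9.46, 9.95 and 9.90, a ratio of 2.48 ± 0.30 (SE; adjusted p = 4.77e-05). H3c7 rose at least 2.65-fold and H3c1 at least 1.55-fold from an undetected level in untreated IDA livers (adjusted p = 6.18e-05 and 9.36e-04), and at the floor H3c7 passed (adjusted p = 5.46e-05) and H3c1 did not (0.0544). H2bc21, the H2B gene of chromosome 3, was detected on 1 of 3 untreated IDA arrays and on all LPS arrays, and its ratio was 2.36 ± 0.33 (SE; adjusted p = 1.33e-04), whereas the other 8 H2B genes rose by 0.55 to 0.84.

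H1f2 stood at 12.97, 12.40 and 12.19 in the untreated IDA livers, 14.19, 14.32 and 14.11 after LPS, 12.40, 12.72 and 13.27 in the untreated KO livers and 13.58, 13.85 and 14.05 after LPS, and it rose by 1.69 ± 0.24 (SE; adjusted p = 1.31e-04) in IDA livers, with the LPS values above all untreated ones. Of H2A genes, H2ac24 rose from 10.95, 10.14 and 9.66 to 11.48, 11.50 and 11.63, by 1.29 ± 0.29 (SE; adjusted p = 0.00311). H2ac18 and H2ac19, of chromosome 3, were the H2A genes that did not pass, at 0.27 and 0.36, though H2ac19 passed as higher under 7 alternatives, among them the authors' normalized intensities (adjusted p = 0.0435). H2ac19 stood at 13.12, 12.57 and 12.77 before and 12.95, 13.32 and 13.27 after LPS, and the groups overlapped. H2ac10 rose from 12.99, 12.52 and 12.56 to 13.09, 13.36 and 13.38, by 0.59 ± 0.14 (SE; adjusted p = 0.00537). H2bc6 rose from 13.47, 13.13 and 13.44 to 13.92, 14.17 and 14.11 and H2bc4 from 13.52, 13.10 and 13.05 to 13.67, 13.94 and 13.73, by 0.72 and 0.55. Of H4 genes, H4c6 rose by 1.56 ± 0.40 (SE; adjusted p = 0.00754) and H4c1 by 1.42 ± 0.29 (SE; adjusted p = 0.00174). H4c3 and H4c4 did not pass, at 0.53 and -0.14. H4c2 and H4c14 did not pass either, and both were detected on 0 of 3 arrays in each IDA group.

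The count of 36 in IDA livers was 32 to 38 members under the other settings tried, except that 22 also exceeded an absolute log2 ratio of 1. IDA LPS 1 was the lowest of its group in 37 of the 42 genes and IDA UT 1 the highest of its group in 39, and without the 3 Xist-positive livers 37 rose. Markers of other cells moved with LPS as well. The 3 measured of 7 neutrophil markers summed to 421 to 1730 before LPS and to 13898 to 17968 after it. Ngp, Camp, Mpo and Elane were not detected. S100a8 and S100a9 rose (4.48 and 4.81) and Ltf, at 0.36, did not pass. Endothelial markers (5 of 6) summed to 7550 to 9435 and 2797 to 3815. Of these Clec4g, Stab2 and Pecam1 fell (-2.28, -0.80 and -0.52), while Lyve1 (-0.10) and Cdh5 (0.44) did not pass. Of Kupffer cell markers Marco rose (2.37), Vsig4, Clec4f and Csf1r fell (-2.67, -1.28 and -0.84), and Adgre1 and Timd4 did not pass. Their part in the rise of histone genes was not tested.

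In KO livers LPS raised 7 of the 42 members (10.2% of all genes) and lowered 0 (8.57%), with a median of 0.18 beside -0.04 over all genes. Those that rose were H1f2 and 6 H2A genes, H2ac7, H2ac11, H2ac12, H2ac15, H2ac22 and H2ac24, with ratios of 1.03 to 1.26 for the 6 detected in both groups. H2ac24 stood at 10.37, 10.93 and 10.85 before and 11.63, 11.98 and 12.33 after LPS, a ratio of 1.26 ± 0.29 (SE; adjusted p = 0.00989). H2ac7 rose from 10.18, 10.80 and 10.81 to 11.46, 11.87 and 12.10, by 1.21 ± 0.28 (SE; adjusted p = 0.0104). H2ac22 rose from 8.29, 8.78 and 8.55 to 9.23, 9.85 and 10.07, by 1.18 ± 0.28 (SE; adjusted p = 0.0135). In each the groups did not overlap, and KO LPS 3 was the highest liver. All LPS values lay above all untreated KO values in 16 of the 42 members, beside 18.1% of all genes, and below them in 4 (18.9%). H1f2 rose by 1.03 ± 0.24 (SE; adjusted p = 0.0109), and H2ac11, undetected in untreated KO livers, at least 1.10-fold (adjusted p = 0.0196, and 0.518 at the floor). Markers of other cells moved here too. Of neutrophil markers S100a8 and S100a9 rose (2.88 and 2.75) and Ltf, at 0.33, did not pass. Of endothelial markers Clec4g and Stab2 fell (-0.93 and -0.45), and Lyve1, Pecam1 and Cdh5 did not pass. Of Kupffer cell markers Marco rose (2.83), Vsig4 and Clec4f fell (-1.54 and -0.85), and Adgre1, Csf1r and Timd4 did not pass. Their part in the histone result was not tested.

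No H2B, H3 or H4 gene passed for LPS in KO livers by limma. At an unadjusted p under 0.05 there were 5 of 12 H4 genes, all lower after LPS, beside 1905 lower of all 11571 genes. The 12 H4 ratios ran from -1.26 to -0.37, the 7 H3 ratios from -0.23 to 0.40 and the 9 H2B ratios from 0.09 to 0.57. The KO livers did not order alike in the classes. KO LPS 3 was the lowest of its group in 12 of 12 H4 genes and the highest in 10 of 13 H2A and 8 of 9 H2B genes, while KO LPS 1 was the highest in 11 of 12 H4 genes. Without KO LPS 1, 4 H4 genes passed as lower after LPS (H4c2, H4c3, H4c4 and H4c11) along with 7 members that were higher. Without the 3 Xist-positive livers, with 1 untreated KO liver as the baseline and the spread taken from the other groups, 1 of the 7 rises remained, H2ac24, and leaving out KO LPS 2 or KO LPS 3 left 3. Without KO UT 1, 3 members rose and 3 H4 genes fell, and without IDA UT 1, 10 rose and 1 fell.

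**Figure D3:**
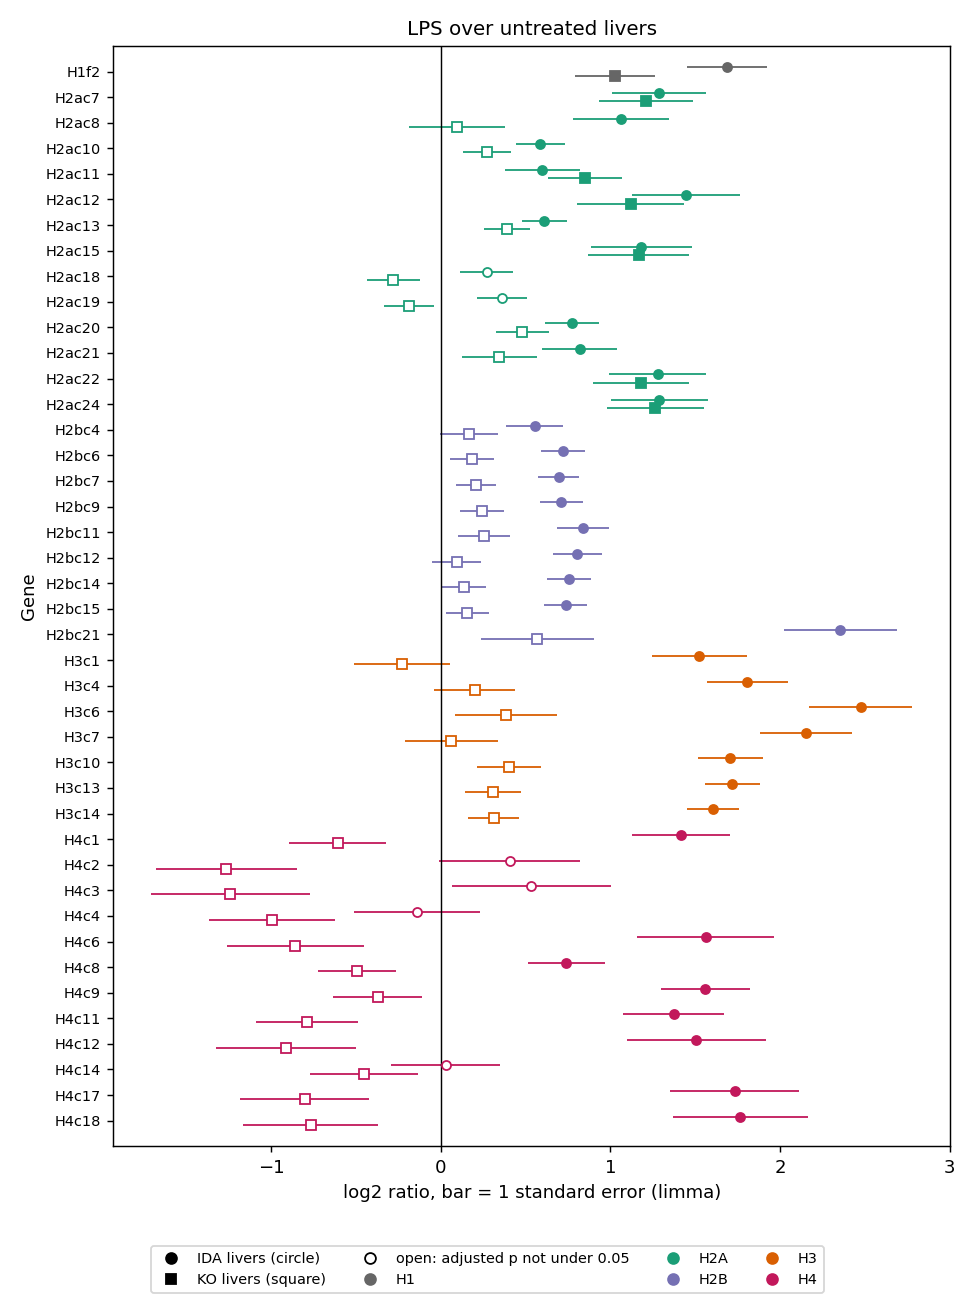
Log2 ratio of LPS over untreated livers for each histone gene, in IDA livers (circles) and KO livers (squares), with bars of 1 standard error from limma, colours for the class and open symbols where the adjusted p was not under 0.05. The 5 H3 genes detected in both IDA groups lie at 1.60 to 2.48 in IDA livers, the 7 H3 genes at -0.23 to 0.40 in KO livers, and all 12 H4 genes lie below 0 in KO livers.

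The LPS response of histone genes differed between the genotypes when this difference was itself tested. In the Interaction contrast, the LPS response in KO minus that in IDA livers, 17 members passed below 0 (5.49% of all genes) and 0 above (5.46%), with a median of -0.69 beside 0.03 over all genes. They were all 7 H3 genes, 8 of 12 H4 genes and H2bc12 and H2bc21. H3c13 had -1.41 ± 0.23 (SE; adjusted p = 0.00404) and H3c14 -1.29 ± 0.21 (SE; adjusted p = 0.00435). Both rose in IDA livers and did not pass in KO livers, at 0.31 and 0.31, and their untreated values overlapped between genotypes. H3c6 had -2.09 ± 0.43 (SE; adjusted p = 0.0121), H4c9 -1.93 ± 0.37 (SE; adjusted p = 0.00906) and H4c6 -2.42 ± 0.57 (SE; adjusted p = 0.0221). For these the untreated KO livers were already above the untreated IDA livers, and the mean after LPS was lower in KO livers. None of the 13 H2A genes passed, nor did H1f2, at -0.66 ± 0.33. At an unadjusted p under 0.05, 3 of the 13 H2A genes were below 0, beside 1460 of all 11571 genes. H2ac24 had -0.02 ± 0.41. Of 24 immediate-early genes 11 passed below 0 and 0 above in the same contrast, and their part in the result was not tested. For H3c7 and H3c1, undetected in untreated IDA livers, the Interaction value is no exact measure, and at the floor H3c7 passed at -1.34 (adjusted p = 0.00754) and H3c1 did not (adjusted p = 0.138). The histone count was 15 with a term for the Xist-positive livers and 16 without them.

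After LPS, 9 of the 42 members were lower in KO than in IDA livers (13.7% of all genes) and 0 higher (16.1%), with a median of -0.35 beside 0.02 over all genes. They were H3c10, H3c13, H3c14, H2bc6, H2bc14, H2bc21, H2ac18, H2ac19 and H4c8. H3c14 had a log2 ratio of -0.90 ± 0.15 (SE; adjusted p = 0.0015) and H3c13 one of -0.91 ± 0.16 (SE; adjusted p = 0.002), with all KO values below all IDA values. H3c10 had -0.84 ± 0.19 (SE; adjusted p = 0.00729). H4c8 stood at 9.70, 9.59 and 9.52 in the untreated IDA livers, 10.02, 10.67 and 10.35 after LPS, 9.64, 10.52 and 9.75 in the untreated KO livers and 9.64, 9.56 and 9.23 after LPS, with a ratio of -0.87 ± 0.23 (SE; adjusted p = 0.0146). Its 3 LPS-treated KO values lay below the 3 of LPS-treated IDA livers. Such a full separation was found in 16 of the 42 members, beside 21.8% of all genes, and the reverse in 2 (24.6%). H2ac18 and H2ac19, the H2A genes that did not pass for LPS in IDA livers, had -0.54 and -0.49. Of the H4 genes with the largest ratios in untreated livers, H4c3 was at 0.55 ± 0.47 and H4c6 at -0.18 ± 0.40 after LPS, and neither passed, nor did H4c2, which was detected on 0 of 3 LPS-treated IDA arrays. Without the 3 Xist-positive livers 12 members were lower. With median scaling 4 members were lower and 1 (H2ac11) higher, and 1 of the 9 also exceeded an absolute log2 ratio of 1. Leaving out IDA LPS 2, IDA LPS 3 or KO LPS 2 left 3 or 4 members, and leaving out IDA UT 1 gave 14 lower and 1 higher. The summed neutrophil markers were 3251 to 8141 in KO and 13898 to 17968 in IDA livers after LPS. Of them S100a8 was lower in KO livers (-1.50), and S100a9 and Ltf did not pass. Kupffer cell markers Vsig4, Adgre1, Marco, Clec4f and Csf1r were higher (1.05, 1.04, 0.78, 0.62 and 0.60), and Timd4 did not pass. Clec4g and Stab2 were higher too (1.72 and 0.49), and Lyve1, Pecam1 and Cdh5 did not pass. Among erythroid markers Slc4a1 and Hba-a1 were higher (2.37 and 0.93), and Alas2 and Klf1 did not pass. The part of these markers in the result was not tested.

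**Figure D4:**
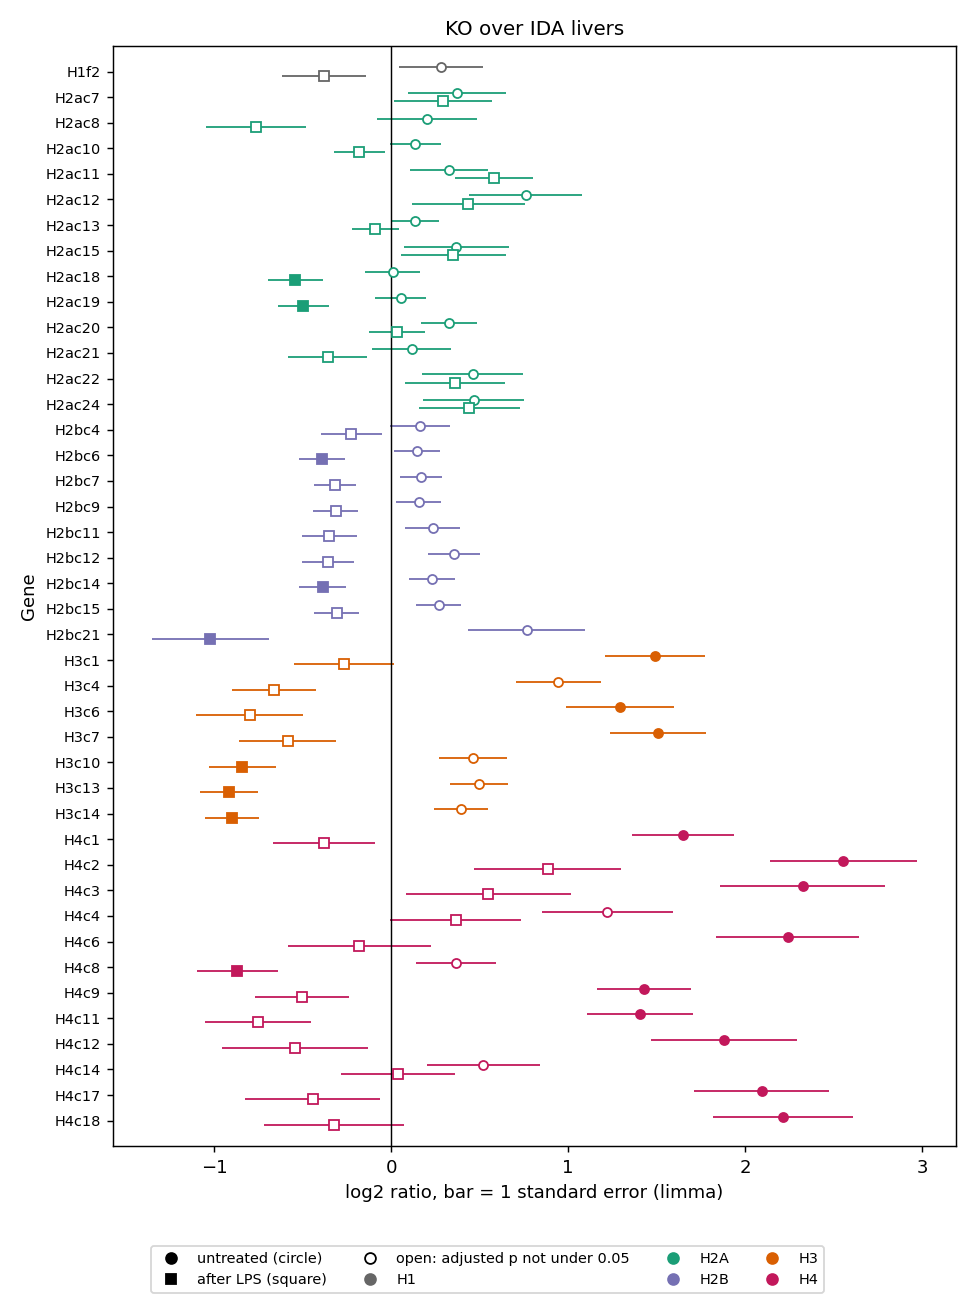
Log2 ratio of KO over IDA livers for each histone gene, untreated (circles) and after LPS (squares), with bars of 1 standard error from limma, colours for the class and open symbols where the adjusted p was not under 0.05. Among H4 genes detected in both untreated groups the ratio reaches 2.32, H4c2, H3c1 and H3c7 are drawn at fitted ratios although no untreated IDA array detected them, and after LPS all H2B and H3 genes lie below 0.

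Over both treatments, the Genotype contrast, which is the sum of the untreated and LPS differences of KO from IDA livers, passed above 0 in 8 members (13.1% of all genes) and below 0 in 0 (11.8%). The median was 0.32 beside 0.01 over all genes. These were H3c1 and 7 H4 genes. H4c3 had 2.87 ± 0.66 (SE; adjusted p = 0.00974), H4c6 2.06 ± 0.57 (SE; adjusted p = 0.0231) and H4c18 1.89 ± 0.56 (SE; adjusted p = 0.0304). H4c2 was undetected in both IDA groups and H3c1 in untreated IDA livers, and neither passed at the floor (adjusted p = 0.0761 and 0.485). Without the 3 Xist-positive livers 8 members passed, of which 5 were among these (H4c2, H4c3, H4c6, H4c17 and H4c18) and 3 were H2A genes (H2ac12, H2ac15 and H2ac24), and with a term for those livers 4 were above 0 and H2ac18 below. H4c2 and H4c3 passed when any single liver was left out, while leaving out any of IDA UT 2, IDA UT 3, the 3 IDA LPS livers, KO UT 2, KO UT 3, KO LPS 1 or KO LPS 2 left 2 to 5 members and leaving out IDA UT 1 gave 14.

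Pairs of genes that start close together and point away from each other gave values side by side. Of these, 4 pairs joined an H2A and an H2B gene, with starts 164 to 249 bases apart. H2ac7 had LPS ratios of 1.29 ± 0.28 in IDA and 1.21 ± 0.28 in KO livers, and its neighbour H2bc7 0.69 ± 0.12 and 0.21 ± 0.12. H2ac12 had 1.44 ± 0.32 and 1.12 ± 0.32, and H2bc12 0.81 ± 0.15 and 0.09 ± 0.15. H2ac15 had 1.18 ± 0.30 and 1.17 ± 0.30, and H2bc15 0.74 ± 0.13 and 0.16 ± 0.13. H2ac11 and H2bc11 form the fourth pair, with H2ac11 undetected in IDA livers. In the other pairs both genes passed in IDA livers and in KO livers the H2A gene passed and the H2B gene did not, and the difference between neighbours was not tested. By cluster, 12 of 34 chromosome 13 members and 0 of 8 chromosome 3 members were higher in untreated KO livers (1.59% of all genes). After LPS 4 of 34 and 5 of 8 were lower in KO livers (13.7% of all genes). For H4 genes cluster and class cannot be told apart, since 11 of the 12 lie on chromosome 13 and 1 on chromosome 3. H3 genes lie in both clusters. In untreated livers 3 of 5 H3 genes of chromosome 13 were higher in KO livers (median 1.29), and 0 of 2 of chromosome 3 (median 0.45). Of these 3, H3c1 and H3c7 did not pass at the floor. After LPS 1 of 5 and 2 of 2 were lower. The difference between clusters was not tested.

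Histone genes that are expressed outside S phase were read beside these. Of 8 measured replication-independent variants 0 passed in untreated livers by limma. At an unadjusted p under 0.05, 1 was higher and 2 lower, beside 1014 and 1017 of all 11571 genes. In LPS-treated IDA livers 3 of the 8 variants rose (21.9% of all genes) and 3 fell (26.0%). H3f3b, which encodes H3.3, rose from 12.66, 12.44 and 12.57 to 13.82, 13.91 and 13.86 in IDA livers, by 1.31 ± 0.12 (SE; adjusted p = 6.57e-06), and its Interaction value was -1.10 ± 0.17 (SE; adjusted p = 0.00359). H2aj rose by 1.54 ± 0.21 (SE; adjusted p = 1.04e-04) and H2ax by 0.93 ± 0.14 (SE; adjusted p = 2.42e-04). Cenpa, the centromeric H3 variant, fell from 9.99, 9.52 and 9.39 to 6.96, 7.37 and 7.28, a ratio of -2.43 ± 0.19 (SE; adjusted p = 1.56e-06), and H2az2 had a ratio of -1.21 ± 0.12 (SE; adjusted p = 1.14e-05).

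Genes of DNA replication, which are also most active in S phase, were read in the same livers. Of 42 listed S-phase genes 29 were measured, with Pcna and Ccna2 among those not detected. Under LPS 3 of the 29 rose (21.9% of all genes) and 14 fell (26.0%) in IDA livers. The median of the 29 was -0.43, where the histone median was 1.12. Tk1, thymidine kinase, fell from 10.29, 9.90 and 9.75 to 7.15, 6.88 and 6.93, a ratio of -3.00 ± 0.16 (SE; adjusted p = 1.61e-07). Mcm10, a replication initiation factor, had -2.45 ± 0.23 (SE; adjusted p = 5.94e-06) and Rrm2, a subunit of ribonucleotide reductase, -1.70 ± 0.19 (SE; adjusted p = 2.24e-05), while Fen1, the flap endonuclease, rose by 1.40 ± 0.13 (SE; adjusted p = 4.76e-06). In untreated livers 4 S-phase genes were higher in KO livers and 0 lower, and without the 3 Xist-positive livers 0 passed in that comparison, and 4 rose and 9 fell under LPS in IDA livers. Mcm6, of the replicative helicase, stood at 6.34, 5.84 and 5.81 in untreated IDA and 8.63, 7.53 and 7.30 in untreated KO livers. These IDA values lay below the lowest detected intensity of their arrays (6.64, 6.49 and 6.48), so Mcm6 was undetected there. Its fitted ratio of 1.82 ± 0.39 (SE; adjusted p = 0.0342 by limma on measured values) is thus no exact measure, and its p at the floor is not given. Mcm2, Pold1 and Prim2 had 1.04, 1.02 and 0.64, and were detected on 7, 9 and 4 of the 12 arrays. Of 25 mitotic genes 7 were measured, and 18 were without a probe or not detected. In untreated livers 0 of the 7 passed by limma. At an unadjusted p under 0.05 there was 1, beside 1014 higher and 1017 lower of all 11571 genes.

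**Figure D5:**
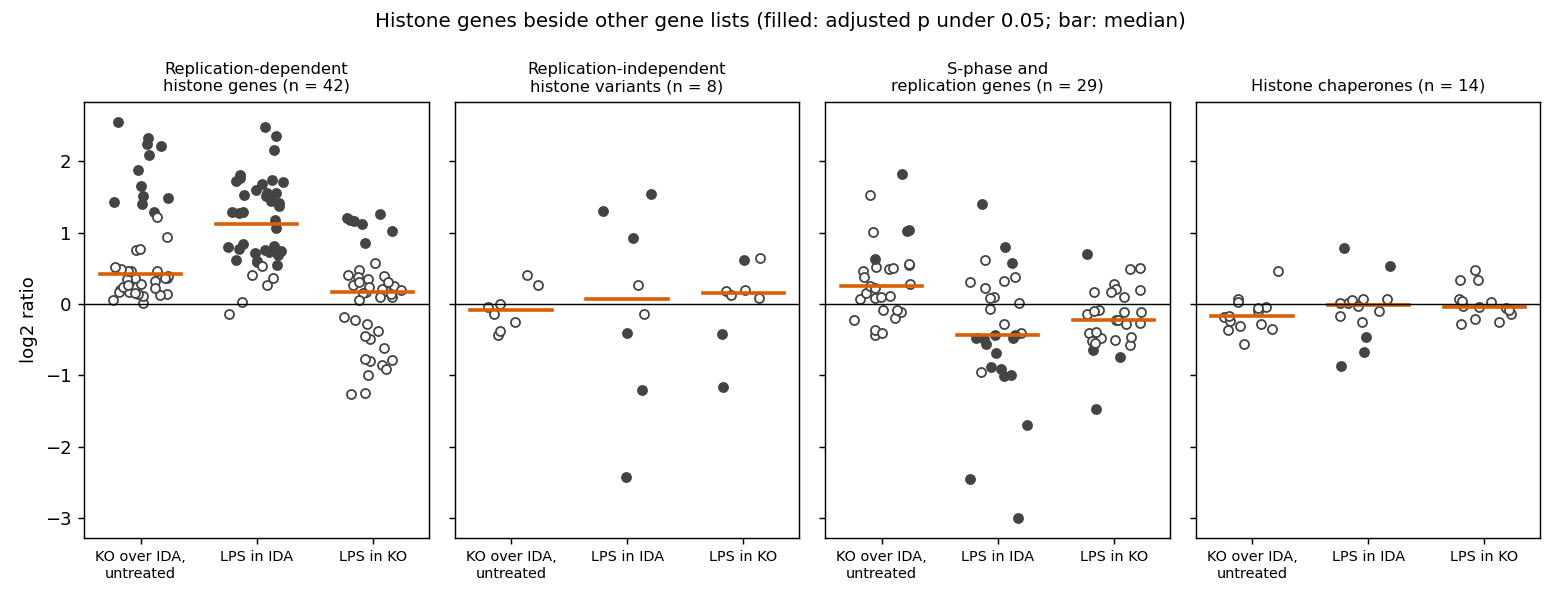
Log2 ratios of single genes (points, filled where the adjusted p was under 0.05) and their median (bar) in 4 gene lists, for untreated KO over IDA livers and for LPS over untreated livers of each genotype. Under LPS in IDA livers the median of the histone genes is 1.12 and that of the S-phase genes -0.43. There 41 of the 42 histone genes lie above 0 and 1 below, while 3 S-phase genes passed as higher and 14 as lower.

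Of genes that process histone mRNAs or regulate their transcription, 10 of 18 were measured, and Slbp, which binds the stem-loop, and Npat, the S-phase activator of histone genes, were not detected. In IDA livers LPS raised 4 of the 10 (21.9% of all genes) and lowered 1 (26.0%). Srrt rose by 0.86 ± 0.12 (SE; adjusted p = 9.76e-05) and Cpsf2, a subunit of the cleavage complex, by 0.66, while Lsm10, of the U7 particle that processes histone mRNA ends, fell by 0.96 on the log2 scale. None of the 10 passed in untreated livers by limma (0 at an unadjusted p under 0.05). Of 14 measured histone chaperones 0 passed in untreated livers by limma. At an unadjusted p under 0.05, 1 was higher and 3 lower, beside 1014 and 1017 of all 11571 genes. Under LPS in IDA livers 2 of the 14 rose (21.9% of all genes) and 3 fell (26.0%).

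The 13 members detected on no array were H1f1, H1f3, H1f4, H1f5, H2ac1, H2ac4, H2ac6, H2bc1, H2bc3, H2bc8, H2bc18, H3c3 and H3c8, which gave no value. Just outside the detection limit of 0.01 lay H2bc8, with a lowest detection p-value of 0.0182, and H2bc3, with 0.0353, and just inside it lay H4c14, with 0.00427, and H2ac8 and H2ac11, with 0.00214 each. Of the 42 measured, 16 had several detected probes, whose ratios had the same sign in 14 of 16 for untreated KO over IDA livers and in 15 of 16 for LPS in IDA livers, and 0 had probes that passed in opposite directions. Members of a class encode nearly or fully the same protein, and the sequences of the probes were not used here, so a probe may read more than 1 member. The replicates are livers of separate mice.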

How the data were processed

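Total liver RNA of 12 mice, 3 in each of 4 groups, was hybridized to Illumina MouseWG-6 v2 BeadChips. The authors deposited raw probe intensities and a detection p-value per probe, together with intensities normalized by cubic spline in GenomeStudio, the version of which is not given in the sources used here. Raw intensities were corrected and quantile normalized by neqc with an offset of 16 and taken to log2, in limma 3.58.1 and R 4.3.3. Probes with a detection p-value under 0.01 on at least 1 array were kept, with 1 probe per symbol. A linear model over the 4 groups gave moderated tests with Benjamini-Hochberg adjustment over 11571 features, as in the study's choice of tool. A fold written as at least N sets an undetected group at each array's lowest detected intensity. The adjusted p beside it comes from the fit on measured values. Genes named with values for every liver are, by rule, the members of lowest p in each contrast (up to 8 for untreated KO against IDA, up to 4 otherwise), the 2 brightest of each class and the 3 that the study names. The members and gene lists were chosen with earlier results of these data known. Alternatives covered the deposited normalized intensities, background correction, scaling, filters, probe choice, samples in the fit, the replicate block, Xist-positive livers and leaving out each liver. Arrays give no count depth, and the number of livers limits the precision. Which livers shared a BeadChip is not given in the sources used here. The script was tested on simulated data, and figures were drawn with matplotlib 3.10.9.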

Additional observations from a re-analysis of the deposited data

Results flagged for a closer look

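The LPS response differed between the genotypes, by limma's test of the difference itself, in 17 histone genes, all with the KO ratio below the IDA ratio. For the 8 H4 genes and H3c1 among them, the ratio was above 0 in IDA and below 0 in KO livers, where none passed. H4c17, for example, had 1.73 in IDA and -0.80 in KO livers. The untreated KO over IDA ratio, above 0 in all 42 members, also enters this contrast. The values, on the log2 scale and as the response in KO minus that in IDA livers, were -1.75 for H3c1, -1.61 for H3c4, -2.09 for H3c6, -2.09 for H3c7, -1.30 for H3c10, -1.41 for H3c13 and -1.29 for H3c14. Among H4 genes they were -2.03 for H4c1, -2.42 for H4c6, -1.23 for H4c8, -1.93 for H4c9, -2.16 for H4c11, -2.42 for H4c12, -2.54 for H4c17 and -2.53 for H4c18. The H2B genes H2bc12 and H2bc21 had -0.71 and -1.79. For H3c1 and H3c7, which no untreated IDA array detected, these are fitted values and no exact measure, and with undetected livers set at each array's lowest detected intensity they were -0.87 (adjusted p = 0.138) and -1.34 (adjusted p = 0.00754).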

How the results depend on the processing

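Of 2196 repeats of single members' calls under the alternatives, 1885 kept direction and side of the threshold, 311 lost the threshold and 0 turned direction. The counts below come without the share of all genes that passed under the same alternative. A changed count is therefore not a result about histone genes alone. In untreated livers the count of 12 histone genes higher in KO became 0 with the compared groups alone in the fit, 4 without the 3 Xist-positive livers, and 1 to 15 when a liver was left out. After LPS the count of 9 lower became 5 with median scaling (4 lower and 1 higher), 1 with an absolute log2 ratio over 1 as well, and 3 to 15 when a liver was left out (the 15 being 14 lower and 1 higher, without IDA UT 1). The LPS count in IDA livers of 36 became 22 with an absolute log2 ratio over 1 as well and was 32 to 37 when a liver was left out. The LPS count in KO livers of 7 higher became 11 (10 higher and 1 lower) with every probe tested separately and with the mean over probes, 1 without the 3 Xist-positive livers, and 3 to 11 when a liver was left out (the 11 being 10 higher and 1 lower without IDA UT 1, and 7 and 4 without KO LPS 1). The Interaction count of 17 was 12 to 20 when a liver was left out. The Genotype count of 8 above 0 became 5 with a term for Xist-positive livers (4 above and 1 below) and 2 to 14 when a liver was left out. Whether replicate numbers pair the livers is not stated in the sources used here. Of 18 same-numbered pairs 3 correlated over 0.1 in their deviations, which with 3 livers a group cannot settle it. With the replicate block the counts were 10, 8, 36, 7 (6 higher and 1 lower), 16 and, for Genotype, 5. The other gene lists without the Xist-positive livers were counted after seeing the data. With 3 livers a group the cause of these changes was not tested.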
